A study of Homo sapiens with 6 samples.

Results

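The genes described here encode 7 families of amino acid carriers (SLC1, SLC3, SLC6, SLC7, SLC36, SLC38 and SLC43). They were taken as all protein-coding rows of the deposited count table whose symbol begins with one of these family names followed by A and a number. The rule found 57 genes among the 39323 in the table, and it used no expression value. Of these, 33 had enough reads to be tested and 24 did not. The study asked what SF3B6, a small subunit of the SF3b complex that sits at the branch point of introns in the U2 snRNP, does in MDA-MB-231, an established triple-negative human breast cancer cell line of mesenchymal character. Cells received either a small interfering RNA (siRNA) duplex against SF3B6 (siSF3B6, 3 libraries) or a non-targeting duplex (siNC, 3 libraries), in both cases with a lipid reagent, and directional libraries were made from polyadenylated RNA. Each group rests on 1 duplex, so an effect of SF3B6 loss and an effect particular to that duplex cannot be told apart. The design text calls the replicates biological, but no label says that they came from separate cultures, and the p-values therefore reflect the variation among these libraries only, which may be technical.

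Amino acids cross membranes only through carriers, and the families differ in what drives them. SLC38 and most SLC6 and SLC1 proteins use the sodium gradient to load amino acids into the cell. SLC7 proteins include uniporters for cationic amino acids and the light chains of exchangers, which reach the plasma membrane only when bound to an SLC3 heavy chain. Exchangers such as SLC1A5 and SLC7A5-SLC3A2 swap one amino acid for another, so sodium-driven loaders such as SLC38A1 and SLC38A2 supply the glutamine that the exchangers spend to import leucine and other essential amino acids. SLC36 and several SLC38 proteins act at the lysosome, where amino acids control the growth kinase complex mTORC1.

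Gene totals ran from 28504091 to 38546037 reads per library, and members took 0.199% to 0.232% of them. SF3B6 itself stood at 86.4, 80.6 and 102 CPM (read counts scaled to library depth with TMM factors) in siNC replicates 1 to 3 and at 22.5, 25.0 and 21.3 in siSF3B6 replicates 1 to 3. Its log2 fold change was -1.96 (SE 0.104, edgeR quasi-likelihood test, adjusted p = 1.43e-07). siNC replicate 3 stood apart from the other siNC libraries: mitochondrially encoded genes took 9.07% of its reads, against 3.38% and 3.93% in siNC replicates 1 and 2 and 10.6% to 11.8% in siSF3B6. Genes with 1 to 9 reads numbered 13952 and 14956 in siNC replicates 1 and 2, against 7731 in siNC replicate 3 and 7877 to 8325 in siSF3B6. The part of these differences in the results below was not tested. The fit was repeated against siNC replicate 3 alone and with the libraries numbered 1 and 2 only, and those values are given where a member's call changed or a called member's value moved by over 1.5 times. The line's markers VIM, CD44, AXL, CAV1 and FN1 lay at 423 CPM or more in every library, but SPARC lay at 0.449 to 3.82 CPM. Of 6 epithelial or receptor genes listed as absent or low in this line, ESR1 and PGR reached at most 0.133 and 0.353 CPM, but KRT8 lay at 1004 to 1190 CPM and ERBB2 at 49.3 to 65.0 CPM. EPCAM (log2 fold change 1.10, adjusted p = 4.03e-06) and CDH1 (0.56, adjusted p = 0.00697) were higher in siSF3B6. Summed over each list, 3 neuronal genes came to 0.994 to 1.80 CPM, 5 lymphoid or myeloid genes to 2.79 to 8.37 CPM, 3 endothelial genes to 6.87 to 10.0 CPM and 3 fibroblast genes to 8.96 to 14.6 CPM. Some were called by the same edgeR test: PTPRC (1.04, adjusted p = 0.0293) and CD68 (0.71, adjusted p = 0.0400) were higher in siSF3B6. PECAM1 (-0.34, adjusted p = 0.0332) and PDGFRB (-0.49, adjusted p = 0.0146) were lower, with groups that did not overlap. CD68 overlapped, at 3.51 CPM in siNC replicate 3 and 3.40 in siSF3B6 replicate 3. So did PTPRC, at 0.696 CPM in siNC replicate 2 and 0.579 in siSF3B6 replicate 1. siSF3B6 replicate 2 stood apart in SPARC, LYZ and COL3A1, with 141, 114 and 104 reads against at most 29, 42 and 6 in any other library. The part of these markers in the results below was not tested. Without siSF3B6 replicate 2, 7 members were called higher and 9 lower, and 34.9% of all genes tested in that fit were called. CD3E, MS4A1, CDH5 and RBFOX3 were at 0.199 CPM or less in every library.

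Of the 33 tested members, 8 were higher in siSF3B6, 10 were lower and 15 did not pass the test (edgeR quasi-likelihood test, Benjamini-Hochberg adjusted p under 0.05 over all 16869 genes tested). The share called was 54.5%, against 40.8% of all genes tested. For the higher direction it was 24.2% against 20.8%, and for the lower direction 30.3% against 20.0%. A change of at least 1.5-fold was called for 6 members (18.2%), against 15.2% of all genes. The 3 siNC and 3 siSF3B6 libraries did not overlap in CPM for 21 members (63.6%), against 52.1% of all genes. The shares of higher and of larger changes lay near those of all genes, and the share of lower calls lay above it, with no test of that difference. The median log2 fold change was -0.14 over the tested members and 0.00 over all genes tested. By family, SLC38 gave 3 higher and 1 lower of 8 tested, SLC6 3 higher and 0 lower of 7, SLC7 1 higher and 4 lower of 6, SLC1 1 higher and 3 lower of 5, and SLC43 0 higher and 2 lower of 3. Neither of the 2 tested SLC3 genes nor of the 2 tested SLC36 genes was called. Scaling by library size alone shifted the all-gene median by -0.10 and gave 5 higher and 14 lower members. Over all genes it gave 2459 higher and 4558 lower. Leaving out siNC replicate 1, siNC replicate 2 or siSF3B6 replicate 1 left 5, 4 and 5 members called higher. Of all genes, 2661, 2503 and 2918 were then higher. With the libraries numbered 1 and 2 only, 11 members were higher and 14 lower. In that fit 55.6% of the 17045 genes tested were called, 4870 higher and 4600 lower.

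**Figure D1:**
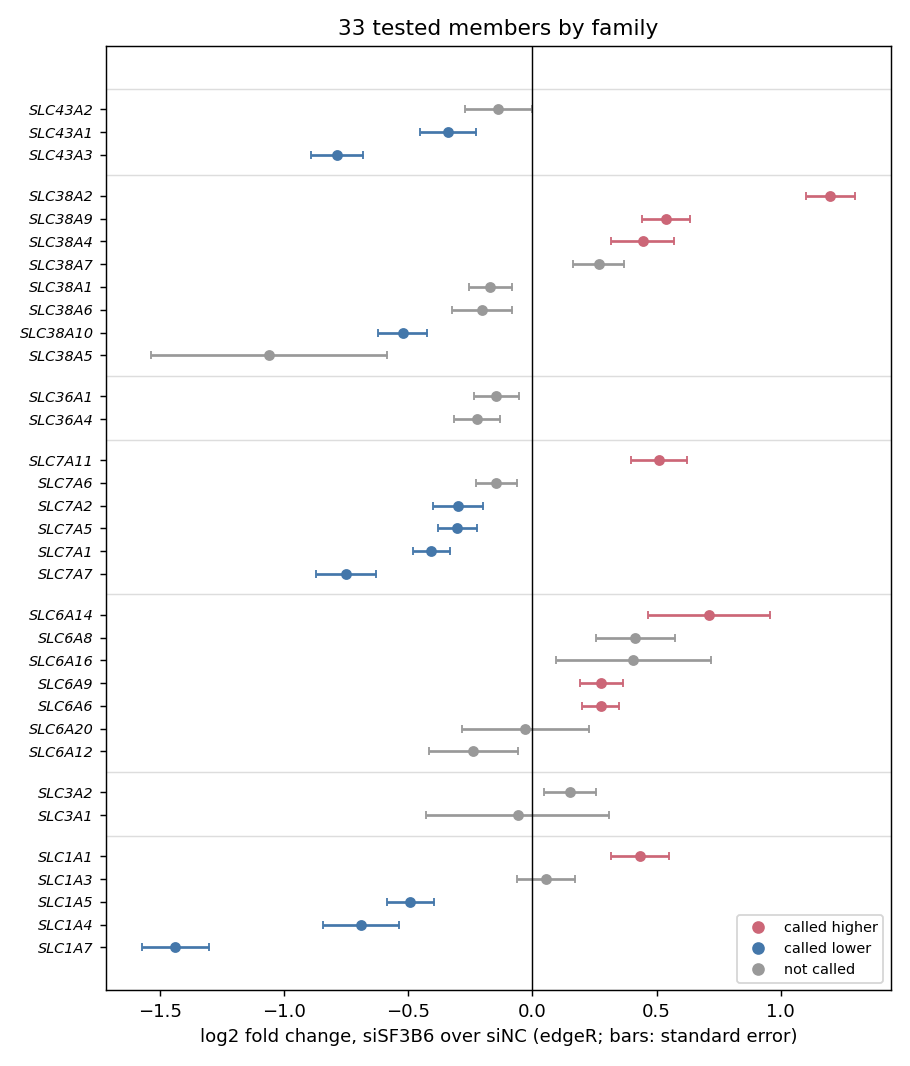
Log2 fold change of the 33 tested members (x axis, siSF3B6 over siNC; points are edgeR estimates from 3 libraries per group and bars are standard errors), ordered by family along the y axis and coloured by call. SLC38A2 lies farthest to the right at 1.20 and SLC1A7 farthest to the left at -1.44, and the SLC38 and SLC7 families hold genes on both sides of 0.

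The expressed repertoire was narrow. Levels between genes are compared per length, in the deposited FPKM (fragments scaled to gene length and library depth). In siNC, 6 members had a median of at least 19.9 FPKM: SLC1A5 at 58.1, SLC38A2 at 48.3, SLC43A3 at 42.9, SLC7A5 at 40.3, SLC3A2 at 32.9 and SLC38A1 at 19.9. The next members, SLC38A10 and SLC7A1, had medians of 8.51 and 8.34 FPKM. Of the first 4, siNC values were 54.7 to 61.3 for SLC1A5 and 44.3 to 49.95 for SLC38A2. They were 35.3 to 46.6 for SLC43A3 and 40.3 to 40.6 for SLC7A5. In every siNC library SLC1A5 was above the other 3, and SLC38A2 was above SLC43A3 and SLC7A5. SLC43A3 was above SLC7A5 in siNC replicates 1 and 2 and below it in siNC replicate 3. In siSF3B6 the order was SLC38A2, SLC1A5, SLC3A2, SLC7A5, SLC43A3 and SLC38A1. The summed FPKM of all members was nearly the same in the groups, at 313, 306 and 295 in siNC and 309, 309 and 314 in siSF3B6. Its make-up was not: SLC38A2 alone made up 15.4%, 14.5% and 16.9% of the sum in siNC and 32.4%, 31.0% and 38.2% in siSF3B6. The SLC38 family made up 27.3%, 26.4% and 30.4% in siNC and 42.9%, 41.6% and 49.4% in siSF3B6. This family rise was that of SLC38A2. Without SLC38A2, the rest of the SLC38 family made up a smaller share in every siSF3B6 library than in any siNC library. The shares of SLC1 were 20.1%, 21.6% and 20.1% in siNC and 14.7%, 15.0% and 12.1% in siSF3B6, those of SLC7 19.5%, 19.8% and 20.6% and then 15.7%, 16.5% and 15.0%, and those of SLC43 16.3%, 15.5% and 13.4% and then 9.06%, 9.15% and 7.77%. No value of these 4 families' shares overlapped between the groups. Nor did those of SLC6, at 3.99% to 4.26% in siNC and 4.43% to 4.81% in siSF3B6. Those of SLC36, at 1.89% to 2.13% and then 1.61% to 1.77%, did not overlap either, and only those of SLC3 did. These are sums over members with no test.

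**Figure D2:**
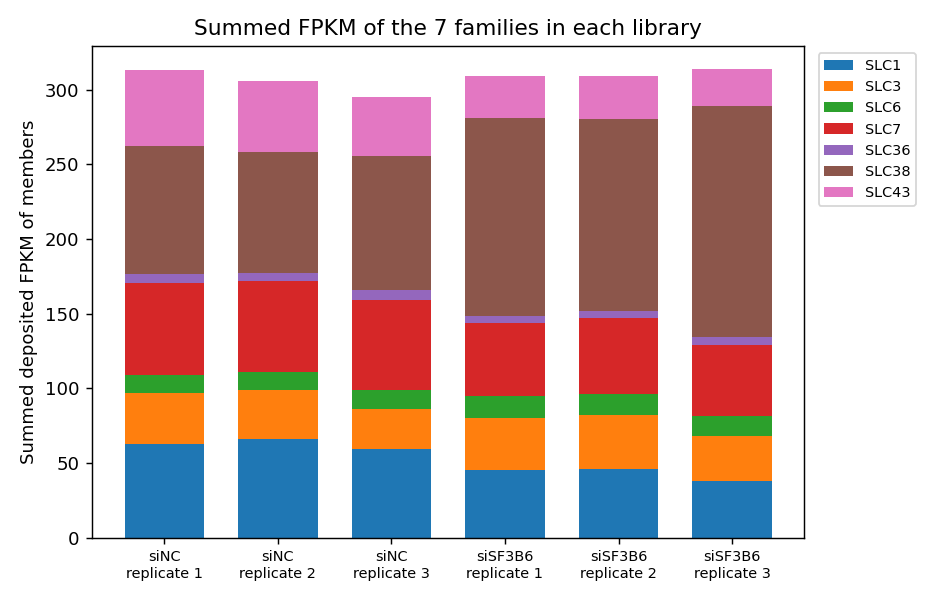
Summed deposited FPKM of all members of each family (y axis, stacked) in each of the 6 libraries (x axis). The total stays between 295 and 314 in every library. In the 3 siSF3B6 libraries the SLC38 segment grows, through SLC38A2, and the SLC1, SLC7 and SLC43 segments shrink.

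**Figure D3:**
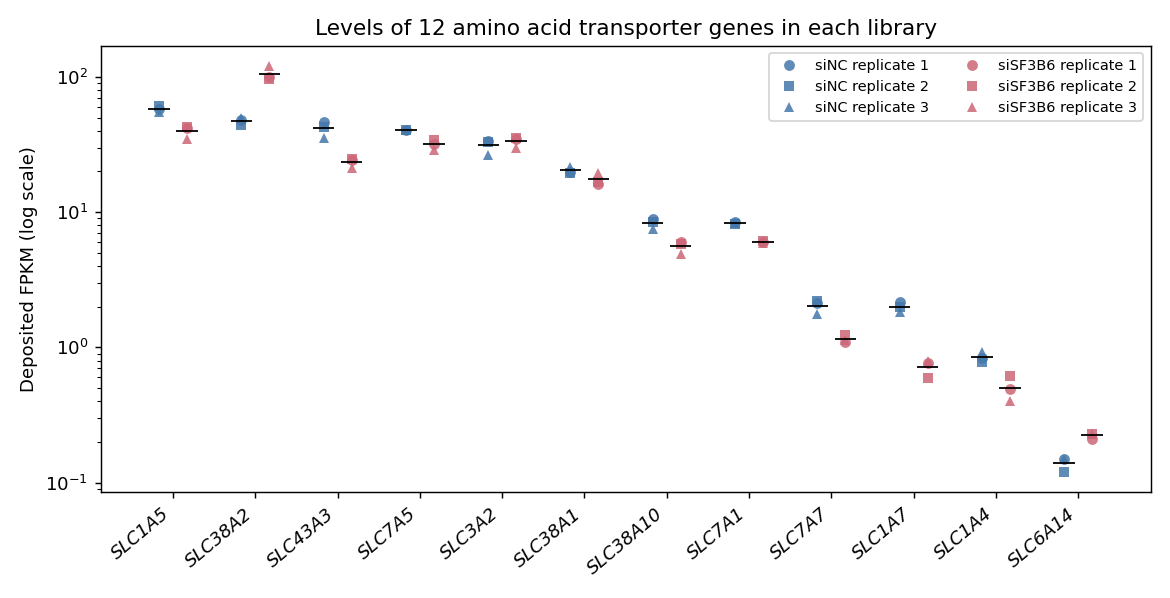
Deposited FPKM (y axis, log scale) of the 8 members of highest siNC level and of the members called with a change of at least 1.5-fold, 12 genes in all (x axis). Each point is 1 library, its shape gives the replicate number and bars are group means; the groups separate in every gene but SLC3A2 and SLC38A1.

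Promoter sequence is shown for SLC38A2, the member that rose most, and around motifs tied to nutrient or oxidative stress in 4 of the members described library by library, taken from the RefSeq table on GRCh38.p14. The windows cover the 250 bases before a start site, and 27 of the 33 tested members have one. SLC7A11, SLC6A6, SLC43A3, SLC7A2, SLC3A1 and SLC6A12 have none and were not searched. The core of the C/EBP-ATF response element, through which ATF4 raises transport and synthesis genes when amino acids run short, was searched as TGATGNAA on both strands. It was found in 2 of the 27 members, SLC1A3 and SLC1A5, in 2.34% of the 11346 tested genes with a window and in 3.14% of all 35116 windows. The core of the antioxidant response element, bound by NFE2L2, was searched as TGACNNNGC on both strands. It was found in 6 of the 27 members (SLC1A3, SLC1A5, SLC3A2, SLC7A1, SLC7A6 and SLC7A7), in 15.9% of the tested genes and in 10.9% of all windows. The window of SLC38A2 holds neither core. An element that responds to amino acid shortage is known in an intron of SLC38A2, outside this window. The motif bases are in capitals, each sequence runs 5′ to 3′ on the strand of its gene, and the SLC38A2 stretch is the part of its window outside the annotated gene.
SLC38A2, chr12:46372868-46373023, minus strand: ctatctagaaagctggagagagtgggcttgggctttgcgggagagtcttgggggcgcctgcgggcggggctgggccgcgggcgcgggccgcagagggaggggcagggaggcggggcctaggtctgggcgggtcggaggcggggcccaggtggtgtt
SLC1A5, C/EBP-ATF core, chr19:46784894-46784921, minus strand: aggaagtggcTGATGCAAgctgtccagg
SLC1A5, antioxidant core on the opposite strand, chr19:46787386-46787414, minus strand: cctggatcttGCGAGGTCAgctcccgctc
SLC3A2, antioxidant core, chr11:62881652-62881680, plus strand: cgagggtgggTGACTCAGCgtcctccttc
SLC7A1, antioxidant core, chr13:29595755-29595783, minus strand: tgcccggcggTGACGCGGCcgagcgggcc
SLC7A7, antioxidant core, chr14:22819861-22819889, minus strand: cctctgggtcTGACCAGGCagtcccagct
The matches of SLC1A5, SLC3A2 and SLC7A7 lie before start sites inside the annotated genes, and that of SLC7A1 before the gene. Of the members with a printed match, SLC1A5, SLC7A1 and SLC7A7 were lower in siSF3B6 and SLC3A2 was not called. A match is a description of letters and not a site of binding.

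The sodium-coupled loaders of the SLC38 family were led by SLC38A2 (SNAT2; ENSG00000134294; chromosome 12, 46358189 to 46372867, minus strand, GRCh38), which imports glutamine, alanine, serine and other small neutral amino acids and is known to rise when amino acids are scarce. SLC38A2 stood at 48.3, 44.3 and 49.95 FPKM in siNC replicates 1 to 3 and at 100, 95.6 and 120 FPKM in siSF3B6 replicates 1 to 3. Every siSF3B6 library lay above every siNC library, and siSF3B6 replicate 3 was the highest of the 6. The log2 fold change was 1.20 (SE 0.0986, edgeR quasi-likelihood adjusted p = 2.80e-06), or 2.30-fold. Against siNC replicate 3 alone it was 1.13, with the libraries numbered 1 and 2 only 1.13, and with an offset fitted to GC content and length 0.99, all called. In bulk RNA, more RNA per cell and more cells of one kind cannot be told apart.

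SLC38A1 (SNAT1; chromosome 12, 46183063 to 46270017, minus strand), the closest relative of SLC38A2 and a loader of much the same substrates, did not rise with it. It stood at 19.9, 19.4 and 21.7 FPKM in siNC and at 16.2, 16.7 and 19.5 FPKM in siSF3B6. The groups overlapped only through siSF3B6 replicate 3, which lay just above siNC replicate 2. This was a log2 change of -0.17 (SE 0.0876, adjusted p = 0.141), and the 95% interval ran from -0.34 to 0.00. SLC38A1 was called lower in 6 of 21 alternatives, among them without siSF3B6 replicate 3 (adjusted p = 0.0107), with the libraries numbered 1 and 2 only (-0.21, adjusted p = 2.44e-06), under the offset for GC content and length (-0.34, adjusted p = 0.000166) and with scaling by library size alone (-0.27, adjusted p = 0.0258). The ratio of SLC38A2 to SLC38A1, both in FPKM, was 2.42, 2.28 and 2.30 in siNC and 6.18, 5.74 and 6.14 in siSF3B6. The ratio of SLC38A2 to the exchanger SLC1A5 was 0.832, 0.723 and 0.914 in siNC and 2.38, 2.23 and 3.47 in siSF3B6, so the loader went from just under the exchanger to well above it. SLC38A1 and SLC38A2 are neighbours 88.2 kb apart on chromosome 12, and SLC38A4 follows 391.9 kb beyond. SLC38A4 (SNAT4), another loader, rose from a median of 2.07 to 2.95 FPKM, a log2 change of 0.44 (SE 0.127, adjusted p = 0.0127). That call did not survive leaving out siNC replicate 1 (adjusted p = 0.0675), siNC replicate 2 (0.0593) or siSF3B6 replicate 3 (0.0587), nor the GC and length offset (0.24, adjusted p = 0.053). The value against siNC replicate 3 alone was 0.17 (adjusted p = 0.493).

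Among SLC38 members that act inside the cell, SLC38A9, the lysosomal carrier that reports arginine to mTORC1, rose by 0.54 on the log2 scale (SE 0.0969, adjusted p = 0.000709). Its FPKM was 1.57, 1.60 and 1.93 in siNC and 2.28, 2.40 and 2.45 in siSF3B6, with no overlap. It was 0.36 and not called against siNC replicate 3 alone (adjusted p = 0.106), and with the GC and length offset it was 0.33 (adjusted p = 0.00396). SLC38A7, which exports glutamine from lysosomes, had a log2 change of 0.27 (SE 0.103, adjusted p = 0.0535). It was called higher without siNC replicate 3 (adjusted p = 0.0194), on leaving out siSF3B6 replicate 3 (0.0239), with the libraries numbered 1 and 2 only (0.41, adjusted p = 5.33e-06) and under the offset for GC content and length (0.39, adjusted p = 0.00429). SLC38A10 (chromosome 17, 81245000 to 81295547, minus strand), a poorly characterised member found on intracellular membranes, moved the other way. It stood at 8.88, 8.51 and 7.49 FPKM in siNC and at 6.02, 5.80 and 4.90 FPKM in siSF3B6. The groups did not overlap, and replicate 3 was the lowest in each. Its log2 fold change was -0.52 (SE 0.0982, adjusted p = 0.00095), and -0.26 with the GC and length offset (adjusted p = 0.00118). It was -0.37 and not called against siNC replicate 3 alone (adjusted p = 0.0970). SLC38A6 was not called at -0.20 (SE 0.121, adjusted p = 0.200), and its value rested on siNC replicate 3. It was -0.04 without that library (adjusted p = 0.752) and -0.48 against it alone, then called lower (adjusted p = 0.0358). It was also called lower with the GC and length offset (-0.34, adjusted p = 0.0123) and with scaling by library size alone (-0.30, adjusted p = 0.0458). SLC38A5 (SNAT5) had only 88 reads in all and a log2 change of -1.06 (SE 0.476, adjusted p = 0.0901); siNC replicate 3, at 0.05 FPKM, lay among the siSF3B6 libraries at 0.04 to 0.07, while siNC replicates 1 and 2 lay at 0.14 and 0.21. Without siNC replicate 3 it was -1.46 and called lower (adjusted p = 0.00846), as it was with the libraries numbered 1 and 2 only (adjusted p = 0.00826), and against that library alone its log2 fold change was 0.31.

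The SLC1 family holds the neutral amino acid exchangers SLC1A4 (ASCT1) and SLC1A5 (ASCT2) and the glutamate transporters. SLC1A5 (chromosome 19, 46774883 to 46788594, minus strand), the main route of glutamine exchange in many tumour lines, stood at 58.1, 61.3 and 54.7 FPKM in siNC and at 42.1, 42.9 and 34.5 FPKM in siSF3B6. All siSF3B6 libraries lay below all siNC libraries, with replicate 3 the lowest of each group. On the log2 scale the change was -0.49 (SE 0.0940, edgeR quasi-likelihood adjusted p = 0.00106). Against siNC replicate 3 alone it was -0.40 and no longer called (adjusted p = 0.0663), and with the GC and length offset it was -0.27 (adjusted p = 0.000846). Annotated exons on the opposite strand overlap 23.8% of the exonic bases of SLC1A5, and their part in its count was not tested.

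SLC1A4 (chromosome 2, 64988477 to 65023865, plus strand), which exchanges serine, alanine and cysteine, was expressed at a far lower level. It stood at 0.83, 0.78 and 0.92 FPKM in siNC and at 0.49, 0.61 and 0.40 FPKM in siSF3B6. The highest siSF3B6 library, replicate 2, stayed below the lowest siNC library. The log2 fold change was -0.69 (SE 0.153, adjusted p = 0.00285). SLC1A7 (EAAT5; chromosome 1, 53087179 to 53142632, minus strand), a glutamate transporter and chloride channel known mainly from the retina, showed the largest fall of all tested members. It stood at 2.18, 1.99 and 1.83 FPKM in siNC and at 0.77, 0.59 and 0.79 FPKM in siSF3B6, with no overlap. This was a log2 change of -1.44 (SE 0.134, adjusted p = 6.77e-06), with -1.31 against siNC replicate 3 alone and -1.25 with the GC and length offset, both called. SLC1A1 (EAAT3), which carries glutamate, aspartate and cysteine, went up in contrast, from 1.16, 1.31 and 1.28 FPKM to 1.65, 1.62 and 1.61 FPKM. Its log2 fold change was 0.43 (SE 0.115, adjusted p = 0.00863), and the adjusted p was 0.133 against siNC replicate 3 alone. SLC1A3 (EAAT1) had a log2 change of 0.05 (SE 0.117, adjusted p = 0.739), with a 95% interval from -0.17 to 0.28, and its sign depended on the scaling and on the libraries used.

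Of the 4 tested light chains, SLC7A5 and SLC7A7 were lower, SLC7A11 was higher and SLC7A6 was not called, and neither heavy chain was called. SLC3A2 (4F2hc or CD98; chromosome 11, 62856102 to 62888875, plus strand), the heavy chain that carries most SLC7 exchangers to the membrane, stood at 33.8, 32.9 and 26.6 FPKM in siNC and at 34.6, 35.6 and 29.8 FPKM in siSF3B6. The groups overlapped, and replicate 3 was the lowest in each. On the log2 scale the change was 0.15 (SE 0.103, adjusted p = 0.264, 95% interval -0.05 to 0.35). It was called higher with the libraries numbered 1 and 2 only (0.12, adjusted p = 0.00559) and under the offset for GC content and length (0.32, adjusted p = 0.00309). The other heavy chain, SLC3A1 (rBAT), was near its detection limit, at 0.04 to 0.08 FPKM and 87 reads over the 6 libraries.

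SLC7A5 (LAT1; chromosome 16, 87830023 to 87869488, minus strand), the light chain that imports leucine and other large neutral amino acids, stood at 40.6, 40.3 and 40.3 FPKM in siNC and at 32.1, 34.0 and 28.9 FPKM in siSF3B6. The siNC libraries lay within 0.3 FPKM of each other and above all siSF3B6 libraries. The log2 fold change was -0.30 (SE 0.0801, adjusted p = 0.00855). It was -0.11 with the GC and length offset and not called (adjusted p = 0.137), and -0.29 against siNC replicate 3 alone, also not called (adjusted p = 0.132). Near-identical pseudogene copies of SLC7A5 are annotated, and how the authors assigned reads between them is not given in the sources used here; its level is therefore uncertain. SLC7A7 (y+LAT1; chromosome 14, 22773222 to 22829820, minus strand), which exchanges cationic for neutral amino acids, was lower too. It stood at 2.12, 2.20 and 1.76 FPKM in siNC and at 1.09, 1.24 and 1.14 FPKM in siSF3B6, with no overlap. This was a log2 change of -0.75 (SE 0.121, adjusted p = 0.000316), and -0.54 against siNC replicate 3 alone (adjusted p = 0.0369). SLC7A6 (y+LAT2), which does the same exchange, was not called at -0.14 (SE 0.0839, adjusted p = 0.186). Antisense genes, chiefly SLC7A6OS, share 55.6% of its exonic bases, and SLC7A6OS had a log2 change of 0.05 (SE 0.0846, adjusted p = 0.639). SLC7A6 was called lower without siSF3B6 replicate 3 (adjusted p = 0.0347), with the libraries numbered 1 and 2 only (-0.18, adjusted p = 0.00657), under the offset for GC content and length (-0.20, adjusted p = 0.0110) and with scaling by library size alone (-0.25, adjusted p = 0.0380).

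SLC7A11 (xCT), the light chain that imports cystine for glutathione synthesis in exchange for glutamate, was the only tested light chain that rose. It stood at 2.97, 2.69 and 2.89 FPKM in siNC and at 3.54, 3.51 and 4.71 FPKM in siSF3B6. The groups did not overlap, and siSF3B6 replicate 3 stood well above the other siSF3B6 libraries. On the log2 scale the change was 0.51 (SE 0.112, adjusted p = 0.00264). It was 0.27 with the GC and length offset (adjusted p = 0.00412), 0.36 with the libraries numbered 1 and 2 only, and 0.49 but not called against siNC replicate 3 alone (adjusted p = 0.0793). The antisense gene SLC7A11-AS1 shares 9.0% of its exonic bases and had 0 to 5 reads per library. Summed over light chains, the FPKM was 50.6, 50.2 and 50.1 in siNC and 40.8, 42.9 and 39.3 in siSF3B6, and SLC7A5 made up 73.3% to 80.6% of it. SLC7A11 made up 5.87%, 5.36% and 5.77% of that sum in siNC and 8.67%, 8.18% and 11.97% in siSF3B6. SLC3A2 over the light chain sum was 0.669, 0.655 and 0.532 in siNC and 0.847, 0.830 and 0.759 in siSF3B6. The ratio was higher in all siSF3B6 libraries, with replicate 3 lowest in each group. These are RNA levels, not amounts of paired protein.

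**Figure D4:**
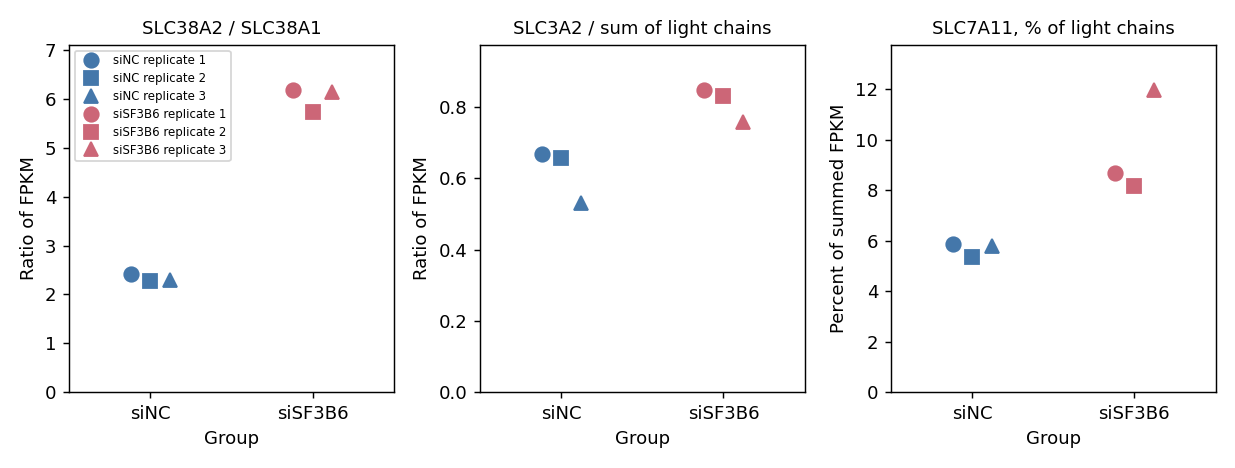
Ratios of deposited FPKM in each library (y axes start at 0; x axis, group; 1 point per library). SLC38A2 over SLC38A1 goes from 2.28 to 2.42 in siNC to 5.74 to 6.18 in siSF3B6, SLC3A2 over the summed light chains from 0.532 to 0.669 to 0.759 to 0.847, and the share of SLC7A11 among light chains from 5.36% to 5.87% to 8.18% to 11.97%.

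The cationic amino acid uniporters of the SLC7 family, which need no heavy chain, were both lower. SLC7A1 (CAT1; chromosome 13, 29509410 to 29595688, minus strand), the general arginine and lysine importer, stood at 8.45, 8.16 and 8.34 FPKM in siNC and at 6.06, 6.14 and 5.94 FPKM in siSF3B6. The spread within each group was small against the gap between them. The log2 fold change was -0.41 (SE 0.0742, adjusted p = 0.000769), and also -0.41 against siNC replicate 3 alone (adjusted p = 0.0411). SLC7A2 (CAT2) had a log2 change of -0.30 (SE 0.101, adjusted p = 0.0288), from a median of 2.08 to 1.70 FPKM. Its call was lost without any of siNC replicates 1, 2 or 3 (adjusted p = 0.0606, 0.0542 and 0.0726) and without siSF3B6 replicate 1 or 2 (0.144 and 0.0656). It was -0.40 against siNC replicate 3 alone (adjusted p = 0.0962), and with the GC and length offset -0.47 (adjusted p = 0.000223).

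SLC43 proteins are sodium-independent facilitators, of which SLC43A1 (LAT3) and SLC43A2 (LAT4) carry branched-chain amino acids, while SLC43A3 has been described as a carrier of purine nucleobases. SLC43A3 (chromosome 11, 57406954 to 57427580, minus strand) stood at 46.6, 42.9 and 35.3 FPKM in siNC and at 24.1, 24.5 and 21.2 FPKM in siSF3B6. The lowest siNC library, replicate 3, was still well above the highest siSF3B6 library. This was a log2 change of -0.79 (SE 0.104, edgeR quasi-likelihood adjusted p = 7.92e-05), with -0.54 against siNC replicate 3 alone (adjusted p = 0.0120) and -0.84 with the libraries numbered 1 and 2 only. An annotated gene on the same strand, AP000781.2, shares 29.9% of the exonic bases of SLC43A3, and how the authors assigned those reads is not given in the sources used here. SLC43A1, which lies 57.0 kb away, had a log2 change of -0.34 (SE 0.111, adjusted p = 0.0254), from a median of 2.48 to 2.03 FPKM. That call was lost without siNC replicate 2 (adjusted p = 0.0604), siNC replicate 3 (0.0614) or siSF3B6 replicate 3 (0.0546), and under the GC and length offset (-0.17, adjusted p = 0.161). With DESeq2 the call was lost too (adjusted p = 0.0618). It was also lost against siNC replicate 3 alone (adjusted p = 0.0844) and with the libraries numbered 1 and 2 only (-0.22, adjusted p = 0.0705). SLC43A2 was not called at -0.14 (SE 0.136, adjusted p = 0.450), but was called lower with the libraries numbered 1 and 2 only (-0.16, adjusted p = 0.0496), and was at 0.17 against siNC replicate 3 alone.

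The SLC6 family, which couples sodium and chloride to amino acids, osmolytes and neurotransmitters, was expressed at low levels apart from the taurine transporter SLC6A6. SLC6A6 rose by 0.28 on the log2 scale (SE 0.0740, adjusted p = 0.00910), from 7.42, 7.17 and 7.71 FPKM to 8.87, 8.62 and 8.54 FPKM. SLC6A9 (GlyT1), the glycine transporter, also rose by 0.28 (SE 0.0866, adjusted p = 0.0203), from 3.36, 3.27 and 3.24 FPKM to 4.08, 3.79 and 3.66 FPKM. Both were small changes with groups that did not overlap. The call for SLC6A6 was lost without siNC replicate 2 (adjusted p = 0.0572) or siSF3B6 replicate 1 (0.0515), and that for SLC6A9 without siNC replicate 1 (0.0575), siNC replicate 2 (0.0682) or siSF3B6 replicate 1 (0.109). With scaling by library size alone neither was called (adjusted p = 0.0950 for SLC6A6 and 0.154 for SLC6A9), nor against siNC replicate 3 alone (0.242 and 0.174). The GC and length offset took SLC6A9 to 0.46 (adjusted p = 0.000138). SLC6A14 (ATB0,+; chromosome X, 116436622 to 116461458, plus strand), a concentrating carrier of neutral and cationic amino acids, stood at 0.15, 0.12 and 0.15 FPKM in siNC and at 0.21, 0.23 and 0.23 FPKM in siSF3B6, from 190 reads in all. Its log2 fold change was 0.71 (SE 0.245, adjusted p = 0.0321). The call held in 7 of 19 alternatives, and not with DESeq2 (adjusted p = 0.158). This call was lost without siNC replicate 1 (adjusted p = 0.0685), siNC replicate 2 (0.120), or any of siSF3B6 replicates 1, 2 and 3 (0.0599, 0.0891 and 0.0610), against siNC replicate 3 alone (0.303), with scaling by library size alone (0.0648) and with the GC and length offset (0.0981). The creatine transporter SLC6A8, at 0.41 (SE 0.159, adjusted p = 0.0512), just missed the threshold with groups that did not overlap, and was called higher without siSF3B6 replicate 3 (adjusted p = 0.0234), with the libraries numbered 1 and 2 only (0.55, adjusted p = 0.00157) and under the offset for GC content and length (0.63, adjusted p = 0.00377). SLC6A12, SLC6A16 and SLC6A20 had log2 fold changes of -0.24, 0.41 and -0.03 and adjusted p of 0.310, 0.317 and 0.942.

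The proton-coupled SLC36 carriers were represented by SLC36A1 (PAT1), which works at the lysosome, and SLC36A4, a carrier of proline and tryptophan. SLC36A1 had a log2 change of -0.14 (SE 0.0919, adjusted p = 0.229), and its FPKM values, 2.17, 2.06 and 2.06 in siNC and 1.71, 1.90 and 1.88 in siSF3B6, did not overlap. SLC36A4 had a log2 change of -0.22 (SE 0.0920, adjusted p = 0.0690), with a 95% interval from -0.40 to -0.04, and was called lower in 8 of 21 alternatives. These include leaving out siSF3B6 replicate 3 (adjusted p = 0.0138), the libraries numbered 1 and 2 only (-0.27, adjusted p = 0.000109), scaling by library size alone (-0.32, adjusted p = 0.0140) and the GC and length offset (-0.45, adjusted p = 4.57e-05).

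The 24 members that were not tested had 1 to 26 reads each over the 6 libraries. They included SLC1A2 and SLC1A6, SLC6A2 to SLC6A5, SLC6A7, SLC6A11, SLC6A13, SLC6A15 and SLC6A19, SLC7A3, SLC7A4, SLC7A8, SLC7A9, SLC7A10, SLC7A13 and SLC7A14, SLC36A2 and SLC36A3, and SLC38A3, SLC38A8 and SLC38A11. Many of them are best known from brain, kidney or intestine. At least 1 read was found for 21, 20 and 8 of them in siNC and for 8, 7 and 7 in siSF3B6, and their summed reads were 68, 96 and 22 in siNC and 25, 28 and 20 in siSF3B6. siNC replicate 3 thus stood with the siSF3B6 libraries, as it did for low-read genes of the whole table.

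Members called higher and lower differed in base composition. The median GC content of the longest annotated transcript was 38% for the 8 higher members, 55.4% for the 10 lower and 50.8% for the 15 not called. Over all genes it was 43.3% for those higher and 54.3% for those lower. The part of GC content in the calls was not tested beyond an offset for GC content and length, under which 14 of the 18 called members kept call and direction, and SLC7A5, SLC38A4, SLC43A1 and SLC6A14 were not called. Against siNC replicate 3 alone, 6 of 18 kept call and direction (SLC38A2, SLC1A7, SLC43A3, SLC7A7, SLC1A4 and SLC7A1). With the libraries numbered 1 and 2 only, 17 of 18 did, SLC43A1 being the exception.

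**Figure D5:**
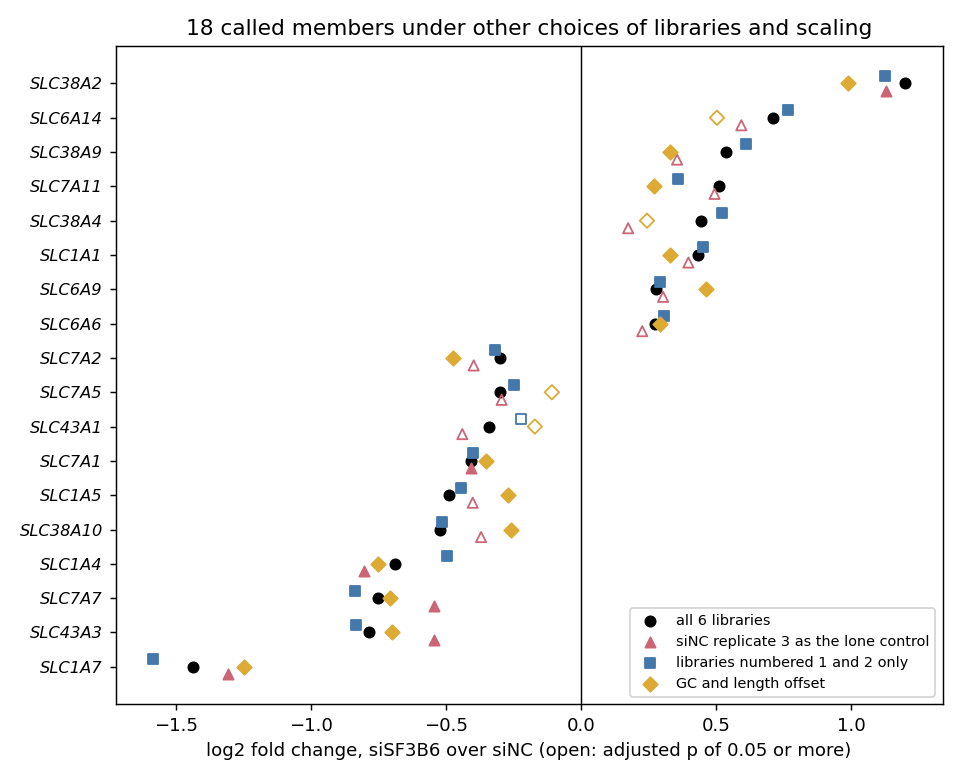
Log2 fold change (x axis, siSF3B6 over siNC) of the 18 called members (y axis) from all 6 libraries, against siNC replicate 3 alone, with the libraries numbered 1 and 2 only, and with an offset fitted to GC content and length; open symbols have an adjusted p of 0.05 or more. All points of a gene lie on the same side of 0, and 12 of the 18 are open against siNC replicate 3 alone.

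Genes that sense, use or control transported amino acids were counted from 7 lists, as a description beside the 20.8% of all genes that were higher and the 20.0% that were lower. Of 28 tested genes of the amino acid response around the transcription factor ATF4, 6 were higher and 7 lower, with a median log2 fold change of -0.07. ATF4 itself was not called at 0.13 (adjusted p = 0.201). The serine synthesis enzyme PHGDH fell by 0.88 on the log2 scale, from a median of 0.98 to 0.51 FPKM, and the transcription factor ATF5 fell by 0.61. The mTORC1 inhibitor DDIT4 rose by 0.73, from a median of 150 to 252 FPKM, and CTH, which makes cysteine from cystathionine, rose by 0.64. Asparagine synthetase, ASNS, fell by 0.35 (adjusted p = 0.0039).

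Of 34 tested genes of amino acid sensing and mTORC1, 6 were higher and 9 lower (median -0.07). The KICSTOR subunit KPTN (-0.88), the Ragulator subunits LAMTOR1 (-0.67) and LAMTOR4 (-0.65) and the mTORC1 scaffold RPTOR (-0.61) had the largest called changes at 5 mean CPM or more, all downward. Other Ragulator subunits went the other way, LAMTOR3 at 0.55 and LAMTOR5 at 0.42. Of 21 tested genes of glutamine, aspartate and branched-chain metabolism, 4 were higher and 5 lower (median -0.14). The arginase ARG2 rose by 1.00 and the branched-chain dehydrogenase subunit DBT by 0.76, while glutamine synthetase, GLUL, had a log2 fold change of -0.42.

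Of 12 tested genes of cystine use and glutathione, 4 were higher and 3 lower (median -0.04). GCLC, the catalytic subunit of the first enzyme of glutathione synthesis, rose by 0.56, its regulator NFE2L2 by 0.50 and the glutaredoxin GLRX by 0.37, and AHCY, of the methionine cycle, had a log2 fold change of -0.38. Of 20 tested genes listed as amino acid and peptide carriers outside the 7 families, 1 was higher and 6 lower (median -0.18). The list and these counts also hold carriers with other main substrates, such as SLC47A1 and SPNS1. The mitochondrial glutamate carrier SLC25A22 (-0.89), SFXN2 (-0.67) and the aspartate-glutamate carrier SLC25A13 (-0.36) fell, and SFXN3 (0.65), a mitochondrial serine carrier, was the one that rose.

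Of 13 tested ubiquitin ligases, adaptors and chaperones of transporters, 5 were higher and 2 lower (median 0.15). The arrestin-like adaptors ARRDC3 (1.30) and TXNIP (0.95), the ubiquitin ligase NEDD4 (0.86) and ARL6IP5 (0.54), a modulator of the glutamate transporter SLC1A1, rose. ARRDC3 went from a median of 4.21 to 9.83 FPKM and TXNIP from 53.0 to 98.1. Of 12 tested transcription factors with known transporter targets, 5 were higher and 0 lower (median 0.10). They include BACH1 (0.66), MYC (0.60), YAP1 (0.54) and NFE2L2 (0.50), the last also counted with glutathione. The highest edgeR quasi-likelihood adjusted p among the genes named as changed in these lists was 0.0128, for GLRX. Against siNC replicate 3 alone the counts higher and lower were 2 and 1 for the amino acid response, 3 and 3 for sensing, 3 and 3 for glutamine and branched-chain metabolism, 0 and 3 for glutathione, 1 and 2 for other carriers, 5 and 0 for ligases and adaptors and 2 and 0 for transcription factors. With the libraries numbered 1 and 2 only they were, in the same order, 10 and 11, 6 and 12, 4 and 7, 4 and 3, 3 and 9, 8 and 2, and 7 and 1. In that fit 55.6% of the 17045 genes tested were called, 4870 higher and 4600 lower. The all-gene shares given with the lists belong to the main fit, so neither of these sets of counts can be read against them. The fit against siNC replicate 3 alone called far fewer genes over the whole table in both directions, as given below.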

How the data were processed

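The 3 siSF3B6 and 3 siNC RNA-seq libraries were analysed, with groups and replicate numbers from the sample titles. The line is named as MDA-MB-231 in every title; a separate label field for it changes from sample to sample and was not used. Raw gene counts are whole numbers that the authors deposited unscaled. The FPKM values were deposited by the authors too, rounded to 2 decimals. HISAT2, DESeq2 and hg38 are named per the submitters' processing notes, without versions. Which program counted reads, whether it used strand, and from which annotation, is not given in the sources used here. Reads of overlapping and antisense genes may therefore be shared.

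Counts were tested with edgeR 4.0.16 in R 4.3.3: filterByExpr, TMM factors, the quasi-likelihood test of siSF3B6 against siNC without a replicate block, and Benjamini-Hochberg adjustment over 16869 genes with a threshold of 0.05. Each standard error was obtained by dividing the log2 fold change by the root of F. Over 3 against 3 libraries the smallest exact two-sided permutation p is 0.1, so single ratios were not tested. FPKM levels and ratios are described without a test.

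The members and lists were chosen with earlier results of these data known. Values in every library are given for called members changed at least 1.5-fold and for the 8 of highest siNC median FPKM. From each list, up to 4 called genes of at least 5 mean CPM with the largest change were named, and some genes are not reported here; ATF4, ASNS, LAMTOR3, LAMTOR5 and further library values were added after their values were seen. Gene positions, overlaps, GC content and transcript length come from GENCODE on GRCh38, which may differ from the authors' annotation, and promoters from RefSeq on GRCh38.p14.

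Alternatives were RLE factors, library size only, DESeq2 1.42.0, limma-voom (limma 3.58.1), other low-count filters, robust dispersion, a replicate block, limma on log2(FPKM + 1) or log2(FPKM + 0.1) with and without a minimum of 0.5 mean FPKM, a GC and length offset, leaving out each library, siNC replicate 3 alone as control, and the libraries numbered 1 and 2 only. The gene test was tested on simulated data. Depth was 28504091 to 38546037 reads per library, and counting error is largest for the members of fewest reads, such as SLC3A1 with 87.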

Additional observations from a re-analysis of the deposited data

How the results depend on the processing

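SLC38A2, SLC1A7, SLC43A3, SLC7A1 and SLC7A7 kept call and direction under all 21 alternatives, and no called member changed direction under any of them. Against 8 higher and 10 lower members, the count higher was 5 with library size only, 4 with limma on unfiltered log2(FPKM + 1) and 1 against siNC replicate 3 alone (the lone control), where 6 were lower. That library is then assumed to vary like the siSF3B6 libraries. Leaving out 1 library gave 4 to 9 higher and 8 to 12 lower members. Over all genes, 3509 higher and 3380 lower became 1178 and 1293 with the lone control and 1561 higher with unfiltered FPKM, and leaving out 1 library gave 2503 to 3881 higher and 2503 to 3690 lower. Fewer samples enter the lone-control fit; the cause of the other shifts was not tested.

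Among members that were not called, signs turned. SLC1A3 was at -0.066 with the GC and length offset, -0.061 with offset and replicate block, -0.044 with library size only, -0.15 with the lone control, and -0.047 to 0.17 when leaving out 1 library. SLC43A2 was at 0.0079 with the offset, 0.0073 with offset and replicate block, and 0.17 with the lone control. SLC38A5 and SLC6A20 were at 0.31 and 0.22 with the lone control, and SLC6A20 at -0.20 to 0.19 when leaving out 1 library. SLC3A1 was at 0.18 with the libraries numbered 1 and 2 only and at -0.33 to 0.15 when leaving out 1 library.

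Replicate numbers gave correlations of 0.0397, 0.106 and 0.136 between same-numbered libraries' deviations. Between differently numbered libraries they ran from -0.12 to 0.0369, so every same-numbered value was the higher. The same-numbered values were not all above 0.1 and no label names a pairing, so the main fit had no block. Whether the numbers pair libraries was not tested. With the replicate block, 9 members were higher and 13 lower, all 18 called members kept their calls, and 4047 genes were higher and 4005 lower.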

Other observations

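Levels per length depend on the length used. With CPM divided by the longest annotated transcript in place of the deposited FPKM, SLC3A2 ranked 1 among the 33 tested members in siNC in place of 5, SLC38A9 14 in place of 23 and SLC1A3 19 in place of 26. SLC7A11, which has the longest transcript of all tested members at 9645 bases, ranked 20 in place of 13.

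Without the filter on low counts, all 57 members were tested, and 15 in place of 10 were called lower. Of the 39323 genes tested in that fit, 17.6% were called, 3431 higher and 3494 lower. Its median log2 fold change over all genes was -0.27, against 0.00 in the main fit. SLC38A5 was among the added calls, as were SLC6A11, SLC6A15 and SLC7A14, which were not tested in the main fit. SLC6A15 had 9, 9 and 0 reads in siNC replicates 1 to 3 and SLC7A14 had 4, 6 and 0, both with 0 reads in every siSF3B6 library. SLC6A11 had 4, 2 and 4 reads in siNC and 0 in siSF3B6, and unlike SLC6A15 and SLC7A14 it had reads in siNC replicate 3.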
